A study of Gasterosteus aculeatus with 60 samples.

Results

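The telencephalon of male threespined sticklebacks (Gasterosteus aculeatus) was compared 120 minutes after a territorial challenge and 120 minutes after a control exposure. The comparison takes in 10 of the 60 RNA-seq libraries of the series, those labelled telencephalon and 120 minutes, with 5 challenged males (fish 1, 9, 13, 19 and 29) and 5 control males (fish 2, 10, 20, 25 and 32). All were adult males of a freshwater population (Putah Creek) that held a territory in a laboratory tank. Challenged males faced a smaller intruder that was confined in a flask, and for control males the flask was empty. Each fish gave 1 library of telencephalon and 1 of diencephalon, so that the same 10 fish were also measured in the diencephalon, and other fish were measured in both regions at 30 and 60 minutes. The question was which genes differ in the telencephalon between challenged and control males at this late time. Values are cpm, the reads on a gene as a share of all reads on genes in that library at a fixed scale, scaled by the TMM factors of edgeR. Unless named otherwise, p is the unadjusted p of edgeR's quasi-likelihood test. Wherever 5 values are listed for a group they stand in the order of the fish numbers above.

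The telencephalon of a teleost holds the pallium and the subpallium, areas that take part in learning, social behaviour and the assessment of other animals. It borders the preoptic area and the diencephalon, in which the neurons that make the nonapeptides oxytocin and vasopressin (isotocin and vasotocin in fish) lie, so that a dissected telencephalon can carry some of the neighbouring tissue. Immediate early genes are transcribed within minutes of neural activity and mostly subside within hours, while slower programmes of transcription, metabolism and immune signalling can follow. In bulk tissue, a lower level of a gene in fewer cells and a lower level per cell cannot be told apart, and this applies to every value below.

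The 10 libraries held 18178450 to 46849131 counts on genes, within the 17705327 to 55299804 of the whole series. Libraries of the same group differed by a chi-square per gene of 13.1 to 121.2 over 20 pairs, so none was a repeat of another. The tissue label was checked with 100 genes each that were most enriched in telencephalon or diencephalon of the control fish at 30 and 60 minutes, which are other fish. The mean log2 cpm of the telencephalon-type genes was 4.45 in challenged fish 9 and 4.66 to 5.14 in the other 9 telencephalon libraries, and 1.22 to 2.00 in the diencephalon libraries of the same time, so that every library carried the profile of its label. The diencephalon-type genes were less even. Their mean log2 cpm was 0.13, 0.53, -1.15, -1.54 and -1.96 in challenged fish and -1.25, -1.35, -1.71, -1.66 and -1.72 in control fish. Challenged fish 1 and 9 thus lay above every control fish, challenged fish 13 lay just above the highest control fish, and challenged fish 19 and 29 lay within or below the control range. All of these levels were far below the 3.52 to 3.94 of the 10 diencephalon libraries. Of the 100 diencephalon-type genes, 59 reached 1 cpm in at least 2 of the 30 telencephalon libraries. The other genes did not, so their values there lay near the floor. The difference in diencephalon-type level between the groups was 0.74 (challenged -0.80 ± 1.08, control -1.54 ± 0.22, SD, n = 5 each, two-sided exact permutation test, p = 0.246). With single fish left out it ran from 0.41 without challenged fish 9 (exact permutation p = 0.437) to 1.03 without challenged fish 29 (exact permutation p = 0.0397). Earlier results of these data had shown diencephalon-type genes in challenged fish 1, 9 and 13, and fish 29 was the lowest of the 10. These p values therefore describe the 10 libraries only and support nothing further. Among the 20 telencephalon libraries of the other times the level ran from -2.04 to 0.65, with a median of -1.68 and with its 2 highest values in a challenged and a control library of 30 minutes. Library index groups of the 10 libraries held at most 2 libraries each, too few for values within them.

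**Figure D1:**
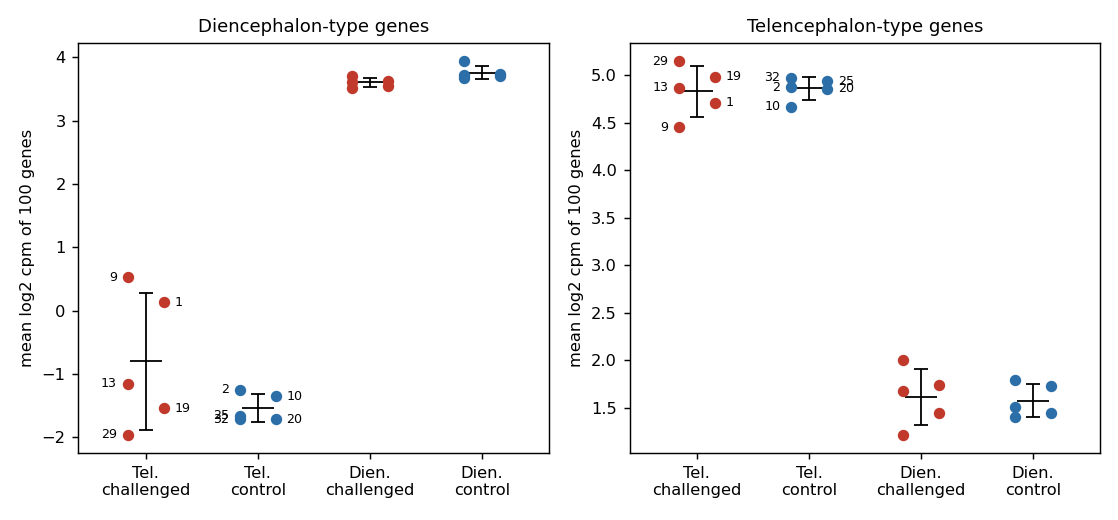
Mean log2 cpm of 100 diencephalon-type genes (left axis panel) and 100 telencephalon-type genes (right axis panel) in the telencephalon and diencephalon libraries at 120 minutes, with 1 point per fish, the mean and the SD over 5 fish; fish numbers are given for telencephalon. Challenged fish 9 (0.53) and 1 (0.13) stand above all control telencephalon libraries (-1.72 to -1.25) in diencephalon-type genes, and fish 9 is lowest (4.45) in telencephalon-type genes.

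No gene passed the threshold (0 of 17247 genes, edgeR quasi-likelihood test, adjusted p under 0.1 over the 6 comparisons of the study). The smallest adjusted p was 0.444, and 0.244 when the adjustment ran over this comparison alone. At an unadjusted p under 0.05 there were 686 genes (3.98% of those tested), of which 431 were higher (2.5%) and 255 lower (1.48%) in challenged fish. DESeq2 called 7 genes (MAMDC4, pax7b, sfi1, srrt, pfkfb3, anp32e (2 of 2) and fat2), and the likelihood ratio test of edgeR called MAMDC4 alone. Of these, pax7b did not pass the filter on low counts without challenged fish 1 and 9, in which it was high. Its call therefore supports nothing further. Genes whose 5 challenged and 5 control values did not overlap numbered 51 higher (0.296%) and 39 lower (0.226%), or 90 in all (0.522%). With labels given at random, a gene separates in this way with a probability of 0.00794, the smallest exact permutation p. The observed share of 0.522% was below this probability, and the 3.98% at p under 0.05 was below 0.05. Separation without overlap in the genes named below is therefore no evidence of an effect by itself. The median log2 fold change of the 431 genes was 0.50 and that of the 255 genes was -0.30, and 117 and 43 of them differed by over 2-fold.

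Single fish set a large share of these counts. Challenged fish 9 had the highest value of all 10 fish for 200 of the 431 genes, and for 79 of them it was over 2 times the next fish. Control fish 20 had the highest value for 62 of the 255 lower genes, and for 23 of them it was over 2 times the next fish. Without fish 9, 206 of the 431 genes were still at p under 0.05. Without fish 20, 148 of the 255 were. Without challenged fish 1, 9 and 13 together, 168 of the 431 and 102 of the 255 were, while the counts themselves were 844 higher and 509 lower, and pfkfb3 alone was called. In all 10 fits that left out 1 fish each, 77 higher and 43 lower genes were at p under 0.05, and 25 and 9 of these also had groups that did not overlap.

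The gene with the smallest p was MAMDC4 (ENSGACG00000018113, groupXIV, 11278595 to 11287976), whose mammalian counterpart encodes endotubin, a glycoprotein of apical endosomes in the rat intestine. It had 37.6, 20.4, 42.8, 40.7 and 9.80 cpm in the challenged fish and 7.20, 2.62, 2.24, 3.45 and 1.75 cpm in the control fish. Every challenged fish lay above every control fish, and the log2 fold change was 3.12 (standard error 0.59, edgeR p = 1.41e-05, adjusted p = 0.444, exact permutation p = 0.00794, the smallest that 5 against 5 fish allow). The diencephalon of the same fish gave 30.1, 16.5, 29.5, 27.6 and 7.49 cpm against 6.04, 2.78, 2.16, 2.46 and 2.74 cpm, with the same order of the groups. At the other times the control median was not low: the median of 5 fish was 21.6 cpm at 30 minutes and 21.9 cpm at 60 minutes in controls, against 20.6 and 19.1 cpm in challenged fish. Single fish were low there too, down to 6.32 cpm in controls at 30 minutes. At 60 minutes the lowest values were 3.14 cpm in controls and 2.38 cpm in challenged fish. As a group, the control fish of 120 minutes were thus low among the controls. The treatment effect at 120 minutes exceeded that at 60 minutes by 3.67 and that at 30 minutes by 2.77 on the log2 scale (unadjusted p = 7.97e-05 and 0.00142, edgeR, neither past the threshold after adjustment).

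Several other genes that were higher without overlap differed by small amounts. For srrt, which encodes the ARS2 protein that links capped transcripts to their processing, the values were 176, 166, 151, 173 and 171 cpm in the challenged fish and 148, 142, 137, 140.4 and 148 cpm in the control fish. The 5 challenged fish exceeded all controls by a log2 fold change of 0.23 (standard error 0.06, p = 0.000541, exact permutation p = 0.00794). The control median of srrt was 142 cpm at 120, 143 cpm at 30 and 135 cpm at 60 minutes. The challenged medians were 171, 147 and 141 cpm, so here the challenged fish of 120 minutes were high. For anp32e (2 of 2), a chaperone that removes the histone variant H2A.Z in mammals, they were 40.6, 40.8, 38.0, 39.9 and 49.1 cpm in the challenged fish and 33.0, 31.4, 36.3, 36.1 and 32.5 cpm in the control fish (log2 fold change 0.30, standard error 0.08, p = 0.000471, exact permutation p = 0.00794), with challenged fish 29 well above the other 4 challenged fish. The control median of anp32e (2 of 2) was 33.0 cpm at 120, 39.6 cpm at 30 and 42.7 cpm at 60 minutes. The challenged medians were 40.6, 37.2 and 39.0 cpm, so here the controls of 120 minutes were low. The suffix of this name marks 1 of several stickleback copies, and reads shared by copies were left out by the authors' counting, so values of such genes are less certain. For thyn1, a nuclear protein first described in thymocytes, they were 17.1, 17.9, 20.5, 26.1 and 19.4 cpm in the challenged fish and 16.0, 14.8, 14.9, 14.6 and 14.7 cpm in the control fish (log2 fold change 0.43, p = 0.00169, exact permutation p = 0.00794). In the diencephalon of the same fish thyn1 stood at 20.9, 18.9, 21.8, 23.0 and 20.6 cpm against 16.9, 15.4, 16.3, 17.6 and 16.5 cpm, again without overlap. Its telencephalon medians were 16.9 cpm in challenged and 14.8 cpm in control fish at 30 minutes. At 60 minutes they were 15.3 and 18.8 cpm, with the order reversed.

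The DNA repair gene mms22l, which acts at stalled replication forks, had 3.24, 3.05, 5.06, 4.104 and 2.82 cpm in the challenged fish and 2.13, 1.70, 2.36, 2.51 and 2.14 cpm in the control fish (log2 fold change 0.75, standard error 0.22, p = 0.00211, exact permutation p = 0.00794). The level was low, but no challenged fish was under any control fish. For cacnb2a, an auxiliary subunit of voltage-gated calcium channels, the values were 91.8, 89.6, 69.8, 71.4 and 72.0 cpm in the challenged fish and 52.9, 61.9, 69.5, 61.8 and 60.2 cpm in the control fish, where challenged fish 13 (69.8 cpm) and control fish 20 (69.5 cpm) nearly met. The log2 fold change was 0.37 (p = 0.00249, exact permutation p = 0.00794), and 0.23 without fish 1, 9 and 13 (edgeR p = 0.0982). The control median of cacnb2a was 61.8 cpm at 120, 73.6 cpm at 30 and 70.7 cpm at 60 minutes. The challenged medians were 72.0, 77.8 and 69.6 cpm, so here too the controls of 120 minutes were low. For scg2a, the granin secretogranin II of dense-core vesicles, which is cleaved into the peptide secretoneurin, they were 137, 146, 131, 136 and 150.2 cpm in the challenged fish and 109, 116, 101.4, 121 and 104 cpm in the control fish. Its log2 fold change was 0.35 (p = 0.0272, exact permutation p = 0.00794), and 0.32 without control fish 20 (edgeR p = 0.0588). The medians of scg2a at 30 minutes were 105 cpm in challenged and 145 cpm in control fish, with the order of the groups reversed. At 60 minutes they were 133 and 113 cpm.

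Other genes that were higher had 1 fish that crossed into the other group. The guanine nucleotide exchange factor arhgef10 (1 of 2) had 12.7, 15.2, 11.1, 12.7 and 15.0 cpm in the challenged fish and 11.8, 10.3, 9.76, 9.95 and 9.32 cpm in the control fish (log2 fold change 0.39, p = 0.00125, exact permutation p = 0.0159). Only challenged fish 13 lay under the highest control fish. For eef1db (1 of 2), a subunit of the elongation factor that recharges eEF1A, the values were 3.79, 4.20, 0.387, 4.93 and 1.62 cpm in the challenged fish and 0.554, 0.786, 0, 0.838 and 0.713 cpm in the control fish. Challenged fish 1, 9 and 19 stood well above the controls, fish 29 less so and fish 13 among them, and the diencephalon placed the same fish high (2.82, 2.24, 0.465, 3.23 and 1.67 cpm against 0.563, 0.571, 0.0309, 0.719 and 0.372 cpm). The telencephalon medians at 30 minutes were 4.69 cpm in challenged and 0.948 cpm in control fish. At 60 minutes they were 1.28 and 3.37 cpm, with the order of the groups reversed. The tyrosine kinase ptk2bb (Pyk2), which calcium activates in neurons and which was chosen for mention after its values were seen, had 40.8, 16.2, 18.4, 18.6 and 69.5 cpm in the challenged fish and 9.03, 13.9, 18.0, 6.80 and 9.10 cpm in the control fish. Challenged fish 29 and 1 were highest, and the diencephalon showed no such spread (9.71, 6.78, 8.84, 8.95 and 9.85 cpm against 8.98, 9.48, 7.64, 8.37 and 9.57 cpm). The telencephalon medians of ptk2bb at 30 minutes were 28.0 cpm in challenged and 12.6 cpm in control fish. At 60 minutes they were 13.9 and 24.4 cpm, with up to 61.3 cpm in a challenged fish. The log2 fold change of ptk2bb was 1.53 in telencephalon and 0.00 in diencephalon, a difference with an unadjusted p of 0.00876 (0.0115 with the fish as a replicate block) that did not pass adjustment.

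**Figure D2:**
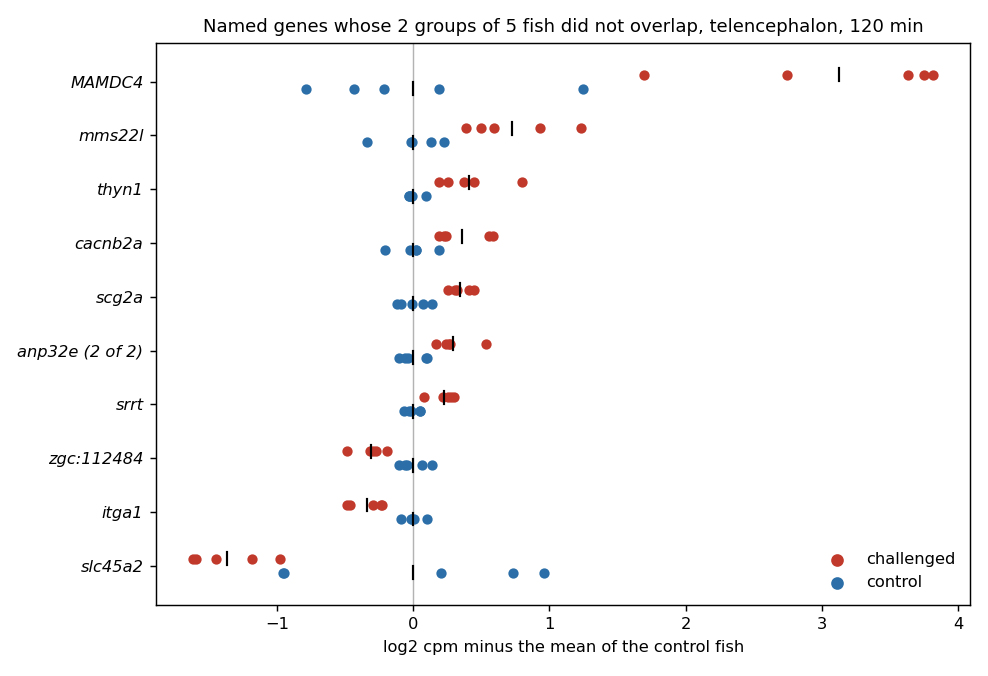
Log2 cpm of each fish minus the mean of the 5 control fish for the named genes whose groups did not overlap, with 1 point per fish and a vertical mark at the group mean. MAMDC4 shows the widest separation (3.12 on the log2 scale in the edgeR fit) and slc45a2 the widest among genes that were lower (-1.55), while the others differ by less than 1.

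The gene with the smallest p among those lower in challenged fish was sfi1 (ENSGACG00000001490, scaffold_27, 4277151 to 4279348), a centrin-binding protein of the centrosome. It had 27.1, 24.5, 25.8, 23.0 and 20.7 cpm in the challenged fish and 38.2, 49.4, 24.7, 40.2 and 38.7 cpm in the control fish (log2 fold change -0.66, standard error 0.15, p = 0.000193, exact permutation p = 0.0238). Control fish 20 had a value among the challenged fish, and without it the change was -0.78. In the diencephalon the values were 27.7, 25.2, 27.2, 24.2 and 27.3 cpm against 37.9, 51.7, 27.2, 40.04 and 41.6 cpm, with fish 20 again within the challenged range. The 4 high controls exceeded the 19.6 to 26.2 cpm of the control fish at 30 minutes. Other telencephalon libraries reached 37.3 cpm (challenged, 30 minutes) and 38.5 cpm (control, 60 minutes). The medians at 30 minutes ran the other way, at 26.1 cpm in challenged and 21.6 cpm in control fish. The difference between the treatment effects at 120 and 30 minutes was -0.99 (unadjusted p = 8.85e-05).

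For zgc:112484 the values were 30.3, 26.2, 32.2, 29.5 and 30.0 cpm in the challenged fish and 38.5, 35.5, 35.2, 34.1 and 40.5 cpm in the control fish (log2 fold change -0.31, p = 0.000887, exact permutation p = 0.00794), and in the diencephalon 25.2, 24.3, 25.96, 28.7 and 24.9 cpm against 37.5, 33.7, 31.7, 29.5 and 31.8 cpm. For the collagen receptor subunit itga1 they were 26.1, 23.2, 27.3, 22.9 and 27.2 cpm in the challenged fish and 31.7, 34.4, 30.2, 31.8 and 32.1 cpm in the control fish (log2 fold change -0.34, p = 0.00214, exact permutation p = 0.00794). Both genes differed by a small amount but without overlap in telencephalon, and itga1 overlapped in the diencephalon, at 34.9, 29.2, 33.1, 27.7 and 30.1 cpm against 35.8, 41.8, 30.7, 32.6 and 30.8 cpm.

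For slc45a2, a transporter of melanosomes that pigment cells need to make melanin, the values were 0.684, 0.513, 0.506, 0.786 and 0.568 cpm in the challenged fish and 1.79, 3.01, 0.800, 0.804 and 2.58 cpm in the control fish (log2 fold change -1.55, standard error 0.45, p = 0.00184, exact permutation p = 0.00794). The 3 control fish with over 1 cpm set the difference, and control fish 20 and 25 stood just above challenged fish 19. The list of pigment epithelium and pigment cell genes, of which 11 were tested, had a median log2 fold change of -0.04, with 1 member lower at p under 0.05 and none higher. For SLC5A7 (1 of 2), the choline transporter of cholinergic neurons, they were 4.61, 3.33, 4.14, 2.71 and 2.62 cpm in the challenged fish and 4.47, 5.89, 6.44, 4.79 and 5.92 cpm in the control fish (log2 fold change -0.66, p = 0.00173, exact permutation p = 0.0159), with only challenged fish 1 above a control fish. Among 11 transmitter markers tested it was the only gene at p under 0.05 (9.09% lower, beside 1.48% of all genes).

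Genes of energy metabolism and genes linked to glucocorticoids had members at p under 0.05 in both directions. This list, like the others, was chosen with earlier results of these data known, so its shares describe these genes only and support nothing further. Of 30 tested, 4 were higher (13.3%, beside 2.5% of all genes) and 5 lower (16.7%, beside 1.48%) at p under 0.05, and the median log2 fold change was 0.04, beside 0.01 over all genes. For pfkfb3 (ENSGACG00000019176, groupIV, 22147684 to 22153447), which makes the fructose-2,6-bisphosphate that drives glycolysis, the values were 8.90, 10.3, 7.00, 37.8 and 48.8 cpm in the challenged fish and 9.07, 6.99, 7.12, 10.3 and 8.55 cpm in the control fish. Challenged fish 19 and 29 stood over 3 times above every other fish, while challenged fish 1, 9 and 13 lay in the control range. The log2 fold change was 1.43 over all fish (standard error 0.37, p = 0.000724, exact permutation p = 0.175) and 2.37 without fish 1, 9 and 13 (adjusted p = 6.57e-05, edgeR), a comparison that keeps just the 2 fish with the high values. The diencephalon gave 13.9, 30.2, 12.2, 63.8 and 63.1 cpm against 20.3, 17.1, 13.4, 25.4 and 13.7 cpm, with the same fish at the top, and the other 20 telencephalon libraries had 6.47 to 16.3 cpm.

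For MLXIPL, the carbohydrate-responsive transcription factor ChREBP, the values were 5.84, 2.85, 3.45, 4.85 and 3.56 cpm in the challenged fish and 14.6, 18.6, 12.0, 3.45 and 14.1 cpm in the control fish (log2 fold change -1.61, standard error 0.47, p = 0.00212, exact permutation p = 0.0397). Control fish 25 was as low as the challenged fish, and the other 4 controls were over 2 times higher. The diencephalon repeated this pattern at 5.96, 4.64, 5.90, 6.78 and 8.41 cpm against 16.1, 21.4, 15.1, 6.83 and 18.9 cpm. Levels at other times also differed, with a median of 13.5 cpm in challenged and 4.52 cpm in control fish at 30 minutes, so that the effect at 120 minutes differed from that at 30 minutes by -2.41 (unadjusted p = 0.00113). For MTFP1, a protein of the inner mitochondrial membrane that promotes fission, they were 15.8, 10.7, 9.05, 8.64 and 7.95 cpm in the challenged fish and 28.0, 17.9, 21.2, 9.21 and 30.1 cpm in the control fish (log2 fold change -1.03, p = 0.00209, exact permutation p = 0.0317), and fish 25 was again the low control.

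The lipid droplet gene CIDEC had 14.9, 26.9, 6.28, 14.9 and 16.4 cpm in the challenged fish and 10.3, 7.29, 7.00, 7.30 and 7.18 cpm in the control fish (log2 fold change 1.02, standard error 0.31, p = 0.00252, exact permutation p = 0.0476). Challenged fish 13 was lowest of the 10 fish, and the other 4 challenged fish lay above every control fish. For acox3, which oxidises branched fatty acids in peroxisomes, the values were 14.0, 20.6, 12.4, 20.4 and 17.3 cpm in the challenged fish and 32.3, 24.6, 19.3, 23.4 and 27.1 cpm in the control fish (log2 fold change -0.58, p = 0.0113, exact permutation p = 0.0238). For idh1, which makes NADPH in the cytosol, they were 49.9, 43.5, 45.4, 49.9 and 64.5 cpm in the challenged fish and 74.9, 58.7, 56.9, 56.3 and 64.1 cpm in the control fish (log2 fold change -0.29, p = 0.0131, exact permutation p = 0.0556). Without fish 1, 9 and 13 the change of idh1 was -0.11, and challenged fish 29 lay among the controls.

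Transcription factors that mark diencephalon and midbrain were high in the telencephalon of 2 challenged fish. Of 65 such genes, 41 reached 1 cpm in at least 2 telencephalon libraries and could be tested, and 34 could without fish 1 and 9. Since some members were tested through the very fish in which they were high, the counts describe those 41 genes only and support nothing further. They were 18 higher (43.9%, beside 2.5% of all genes) and none lower (beside 1.48%) at p under 0.05, with a median log2 fold change of 1.44, beside 0.01. Challenged fish 1 and 9 were the 2 highest fish for 27 of the 41. Without fish 9 the median was 0.53 with 10 of 40 genes higher, beside 332 of 17194 genes over all. Without fish 1 and 9 the median was -0.04 over 34 genes with none higher, and without fish 1, 9 and 13 it was -0.72 over 34 genes. The summed level of the tested genes was 158 and 249 cpm in fish 1 and 9, 106 cpm in fish 13, 68.5 and 42.5 cpm in fish 19 and 29, and 62.7 to 87.9 cpm in control fish, against 702 to 1037 cpm in the diencephalon libraries. These genes moved with the diencephalon-type level of the same libraries, whose 100 genes were not kept apart from this list. The part of neighbouring tissue in the difference was not tested.

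The paired-box factor pax7b (ENSGACG00000001703, scaffold_27, 5048747 to 5088359), which patterns dorsal midbrain and diencephalon, had 4.74, 7.66, 0.238, 0.131 and 0.0655 cpm in the challenged fish and 0.128, 0.131, 0.0400, 0.0335 and 0.110 cpm in the control fish. Fish 1 and 9 held all but a trace of the reads, no control library had more than 3, and the log2 fold change of 4.84 (standard error 1.32, p = 0.00109, exact permutation p = 0.0635) rests on them. In the diencephalon the gene stood at 40.1, 35.8, 50.2, 43.6 and 38.7 cpm against 46.3, 44.9, 57.0, 40.8 and 50.3 cpm. Its paralog pax7a showed the same fish at 2.01, 3.17, 0.119, 0.0437 and 0.0437 cpm against 0.0852, 0.0873, 0, 0.0670 and 0 cpm. The midbrain factor DMBX1 (2 of 2) had 2.37, 4.39, 0.119, 0.175 and 0.0218 cpm in the challenged fish and 0.0426, 0.0437, 0, 0.101 and 0.0548 cpm in the control fish (log2 fold change 4.72, p = 0.00369, exact permutation p = 0.0635). In every one of these 3 genes fish 13 was a little above the highest control fish or level with it, and fish 29 was not. None of the 3 passed the filter on low counts without fish 1 and 9, so their tests support nothing further.

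The bHLH factors tal2 and tal1, which specify GABAergic neurons of the midbrain in mice, behaved alike. The values of tal2 were 6.20, 8.98, 0.566, 0.306 and 0.175 cpm in the challenged fish and 0.341, 0.218, 0.160, 0.503 and 0.165 cpm in the control fish (log2 fold change 3.50, p = 0.00287, exact permutation p = 0.127), and those of tal1 were 9.49, 9.78, 2.17, 1.88 and 1.70 cpm in the challenged fish and 2.26, 2.27, 1.12, 1.84 and 1.70 cpm in the control fish (1.44, p = 0.00425, exact permutation p = 0.198). For barhl1b, a homeobox gene of diencephalon and cerebellum, they were 3.92, 6.28, 0.387, 0.0437 and 0.0437 cpm in the challenged fish and 0.0852, 0.175, 0, 0.0670 and 0.0548 cpm in the control fish (4.74, p = 0.00293, exact permutation p = 0.127). Fish 1 and 9 stood far above the controls in all 3.

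The Iroquois genes, which help pattern the diencephalon, had the same 2 fish at the top. The values of irx2a were 2.55, 5.45, 0.328, 0.131 and 0.109 cpm in the challenged fish and 0.383, 0.437, 0.0800, 0.268 and 0.110 cpm in the control fish (log2 fold change 2.71, p = 0.00741, exact permutation p = 0.294), those of irx3a were 2.92, 7.05, 0.536, 0.349 and 0.109 cpm in the challenged fish and 0.298, 0.699, 0.200, 0.168 and 0.219 cpm in the control fish (2.78, p = 0.0158, exact permutation p = 0.214) and those of irx5a were 4.93, 10.6, 0.715, 0.218 and 0.153 cpm in the challenged fish and 0.681, 0.742, 0.160, 0.134 and 0.165 cpm in the control fish (3.129, p = 0.0123, exact permutation p = 0.183). Fish 9 was over 2 times above fish 1 in each. For tfap2b (AP-2 beta) and shox fish 1 and 9 were nearly equal, at 6.75, 6.67, 0.506, 0.262 and 0.131 cpm against 0.256, 0.218, 0.240, 0.503 and 0.165 cpm for tfap2b and 4.56, 5.00, 0.298, 0 and 0.0873 cpm against 0.128, 0.131, 0.0800, 0.168 and 0.110 cpm for shox. For pou4f2 (BRN3B), a factor of projection neurons in tectum and retina, they were 5.34, 10.8, 0.357, 0.131 and 0.0218 cpm in the challenged fish and 0.170, 0.437, 0.160, 0.235 and 0.110 cpm in the control fish (3.86, p = 0.014, exact permutation p = 0.0476). For sp5l, a target of Wnt signalling in fish, the values were 2.14, 1.99, 0.119, 0.131 and 0.0873 cpm in the challenged fish and 0.213, 0.131, 0.0400, 0 and 0 cpm in the control fish (3.46, p = 0.00619, exact permutation p = 0.0952). Without fish 1, 9 and 13 the log2 fold change was -0.26 for tal2, -0.03 for tal1, -1.09 for irx2a, -0.53 for irx3a, -1.03 for irx5a, -0.56 for tfap2b, -1.17 for shox and -1.71 for pou4f2. The genes pax7b, pax7a, DMBX1 (2 of 2), barhl1b and sp5l have no such value, since they did not pass the filter without fish 1 and 9. Their tests over all fish support nothing further. With the diencephalon-type level of each library in the model, the median of the 41 genes was -0.20, with 1 higher and 1 lower at p under 0.05 in place of 18 and none. The 100 genes behind that level were not kept apart from the 41. The adjustment is therefore not independent of them, and no conclusion is drawn from it. In that model the log2 fold change was 1.15 for pax7b (edgeR, unadjusted p = 0.0386), 1.06 for barhl1b, 1.01 for DMBX1 (2 of 2), 0.49 for tal2 and -0.84 for pou4f2.

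The telencephalic factors, of which 30 of 31 were tested, had a median log2 fold change of -0.08, with 2 lower at p under 0.05 and none higher. These were prdm8, at 6.66, 6.19, 4.32, 6.07 and 4.59 cpm against 7.24, 7.95, 8.00, 5.33 and 9.82 cpm (log2 fold change -0.46, p = 0.0252, exact permutation p = 0.0476), and lhx8b, a factor of cholinergic and GABAergic neurons of the subpallium, at 17.3, 12.6, 21.0, 25.6 and 12.9 cpm against 24.1, 18.5, 24.6, 22.6 and 26.2 cpm (-0.38, p = 0.0489, exact permutation p = 0.0873). The summed level of the list was lowest in challenged fish 9 (1719 cpm) and 2033 to 2426 cpm in the other 9 fish. The nuclear receptor gene rorb, on the circadian list, was also highest in fish 9 and 1, at 5.84, 9.94, 3.93, 3.06 and 4.04 cpm against 2.56, 3.45, 3.32, 2.75 and 3.18 cpm (log2 fold change 0.81, p = 0.00307, exact permutation p = 0.0317), and stood at 26.7, 28.5, 36.3, 33.0 and 30.7 cpm against 35.8, 31.3, 38.2, 30.5 and 29.5 cpm in diencephalon. Of the cerebellar genes (9 of 10 tested) 3 were higher (33.3%, beside 2.5% of all genes) and none lower (beside 1.48%) at p under 0.05, with a median of 0.29. Since not all 9 passed the filter without fish 1 and 9, the counts describe the tested genes only and support nothing further. Without fish 9 there was 1 higher, beside 332 of 17194 genes over all, with a median of 0.07. Without fish 1 and 9 there was none of 8 tested, with a median of -0.02. Of these fat2, a giant cadherin of cerebellar granule cells in mammals, had 14.4, 44.0, 1.49, 3.798 and 2.29 cpm in the challenged fish and 1.36, 1.88, 3.36, 0.972 and 4.61 cpm in the control fish (2.45, p = 0.0022, exact permutation p = 0.167), with fish 9 and 1 alone above the controls and with a change of 0.05 without them.

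Oxytocin (oxt, isotocin in fish) and vasopressin (avp, vasotocin in fish) were high in the telencephalon libraries of a few fish. The values of oxt (ENSGACG00000006569, groupXIII, 5131577 to 5133164) were 0.456, 509, 253, 0.917 and 0.306 cpm in the challenged fish and 0.426, 40.4, 0.800, 0.201 and 0.768 cpm in the control fish. Those of avp (ENSGACG00000006670, groupXIII, 5162715 to 5164290) were 8.90, 227, 140.2, 1.40 and 1.64 cpm in the challenged fish and 2.90, 43.8, 3.48, 1.88 and 2.03 cpm in the control fish. Challenged fish 9 and 13 and control fish 10 held nearly all of both transcripts, with avp in fish 1 at 8.90 cpm as the next, and challenged fish 19 and 29 were in the control range. The log2 fold change was 4.17 for oxt (standard error 2.13, p = 0.0612, exact permutation p = 0.302) and 2.81 for avp (standard error 1.55, p = 0.0804, exact permutation p = 0.294), so neither differed beyond the spread between fish. Without fish 1, 9 and 13 the signs turned, to -3.96 and -2.80.

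In the diencephalon of the same fish oxt stood at 474, 9.03, 216, 202 and 259.7 cpm against 199, 274, 156, 334 and 309.8 cpm and avp at 225, 5.25, 120.0, 84.8 and 244 cpm against 131, 232, 125, 231 and 87.3 cpm. Challenged fish 9 was thus lowest of 10 in diencephalon for both genes and highest of 10 in telencephalon, while fish 13 and 10 lay among the other fish in diencephalon. A further gene, chosen after its values were seen, showed the same exchange in fish 9: scospondin, made by the subcommissural organ at the roof of the diencephalon, had 2.37, 17.1, 1.85, 2.18 and 2.62 cpm against 2.09, 2.58, 1.76, 1.91 and 2.47 cpm in telencephalon and 12.8, 3.62, 20.7, 15.1 and 13.1 cpm against 25.7, 16.5, 23.7, 10.9 and 14.2 cpm in diencephalon. The fish that were high in nonapeptides were not the same as those high in pax7b and its group, since fish 1 was high in the latter and fish 13 and 10 in the former. High values also occurred at 30 minutes, up to 843 cpm of oxt in a challenged and 526 cpm in a control telencephalon, where the medians were 1.13 and 1.52 cpm. Of the 9 neuropeptide genes tested, 1 was higher (scg2a) and 1 lower at p under 0.05, each 11.1% beside 2.5% and 1.48% of all genes. The higher count was 0 without control fish 20 and 2 without challenged fish 1, beside 377 of 17227 and 467 of 17244 genes over all. The lower was pnoca, the precursor of nociceptin, at 32.7, 22.5, 35.0, 20.8 and 22.5 cpm against 37.2, 42.4, 42.1, 41.4 and 23.7 cpm (log2 fold change -0.49, p = 0.0137, exact permutation p = 0.183), with control fish 32 as the only control among the challenged values.

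**Figure D3:**
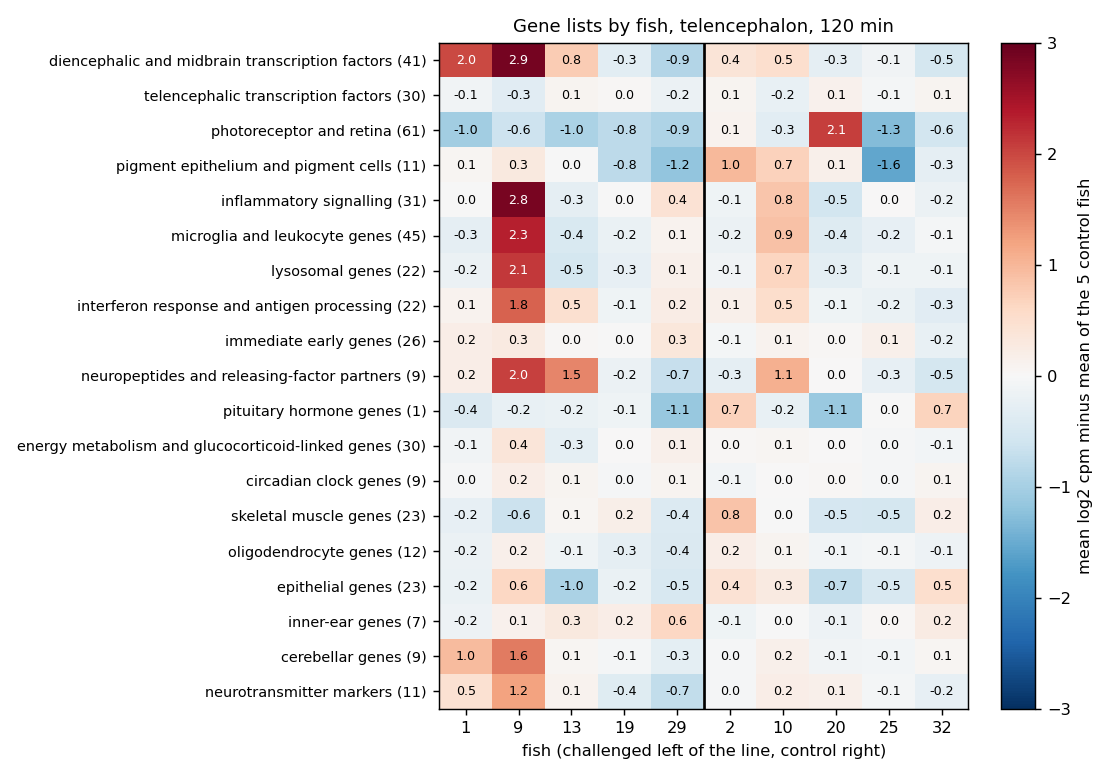
Mean log2 cpm of each gene list in each of the 10 telencephalon libraries, minus the mean of the 5 control fish, with the number of tested members in brackets and challenged fish left of the line. Diencephalic and midbrain factors are high in fish 1 and 9 (2.0 and 2.9), immune lists in fish 9 (1.8 to 2.8) and, less so, in control fish 10 (0.5 to 0.9), and photoreceptor genes in control fish 20 (2.1).

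Immune genes had higher means in challenged fish, and challenged fish 9 carried the difference. Beside 2.5% of all genes higher and 1.48% lower at p under 0.05, 11 of 31 genes (35.5%) were higher on the inflammatory list (median log2 fold change 0.96), 8 of 45 (17.8%) on the list of microglia and leukocyte genes (0.71) and 4 of 22 (18.2%) on the lysosomal list (0.49), and none was lower. Without fish 9 these medians were 0.01 over 27 genes, -0.27 over 45 and -0.08 over 22, and no gene of the 3 lists was higher at p under 0.05. Some inflammatory genes passed the filter only with fish 9 included, so those counts describe the tested genes only and support nothing further. Without control fish 20 the counts were 6, 3 and 3, beside 377 of 17227 genes over all. Without challenged fish 13 they were 14, 17 and 7, where the count over all genes also rose, to 745 of 17244. Fish 9 was the highest of 10 fish for 26, 40 and 21 of the 31, 45 and 22 genes, and control fish 10 was second behind it for 37 of the 45 microglia genes. The summed level of the microglia genes was 3916 cpm in fish 9, 1299 cpm in fish 10 and 578 to 747 cpm in the other 8.

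The enzyme gene irg1 (ENSGACG00000001816, groupXVI, 2495273 to 2497944), which makes itaconate in activated macrophages, had 1.14, 129.6, 1.79, 1.62 and 1.94 cpm in the challenged fish and 0.980, 5.89, 1.28, 1.31 and 0.932 cpm in the control fish (log2 fold change 3.71, p = 0.0182, exact permutation p = 0.46). Without fish 9 the change was -0.33. The cytokine il1b had 0.182, 9.62, 0.119, 0.218 and 0.218 cpm in the challenged fish and 0.128, 0.611, 0.120, 0.0670 and 0.274 cpm in the control fish, and the chemokine ccl-c5a had 2.33, 109, 5.45, 5.68 and 5.44 cpm in the challenged fish and 2.73, 8.82, 2.2005, 3.58 and 2.58 cpm in the control fish. Challenged fish 9 exceeded every other fish by more than 10 times in all 3.

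Genes that mark the cells themselves were also high in fish 9. The pore-forming mpeg1 of macrophages had 12.4, 253, 6.31, 8.30 and 22.2 cpm in the challenged fish and 10.1, 36.4, 7.40, 10.4 and 12.5 cpm in the control fish (log2 fold change 1.98, p = 0.0213, exact permutation p = 0.651), and the protease ctsl.1 (cathepsin L) had 3.33, 208, 1.58, 2.62 and 7.40 cpm in the challenged fish and 2.43, 9.78, 2.00, 3.05 and 2.80 cpm in the control fish (3.47, p = 0.00593, exact permutation p = 0.571). Without fish 9 they differed by -0.31 and -0.09. The myeloid transcription factor spi1b (PU.1) had 19.9, 127, 15.7, 18.8 and 24.4 cpm in the challenged fish and 20.7, 50.4, 17.9, 18.6 and 22.1 cpm in the control fish, and irf8, which microglia need to develop in zebrafish and mice, had 12.2, 131, 11.3, 13.6 and 18.9 cpm in the challenged fish and 12.4, 33.4, 12.6, 16.4 and 16.9 cpm in the control fish. The inflammatory factor cebpb had 4.74, 29.1, 2.29, 3.32 and 8.23 cpm in the challenged fish and 2.43, 4.45, 2.04, 5.29 and 3.35 cpm in the control fish, and the lipid-sensing receptor pparg had 8.71, 30.9, 6.22, 13.6 and 9.72 cpm in the challenged fish and 9.37, 14.3, 6.84, 5.46 and 11.6 cpm in the control fish. In all 6 genes fish 9 was highest, and control fish 10 was second in all but cebpb. In the diencephalon the same fish stood apart, with mpeg1 at 9.75, 221, 4.81, 6.0002 and 41.2 cpm against 6.43, 42.0, 3.37, 6.21 and 10.3 cpm, and with a summed level of microglia genes of 3661 cpm in fish 9, 1429 cpm in fish 10, 1390 cpm in fish 29 and 528 to 700 cpm in the other 7.

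By counts at p under 0.05, genes of the interferon response and of antigen processing rested less on fish 9 than the immune lists above. Of 22 tested, 11 were higher (50%, beside 2.5% of all genes) and none lower (beside 1.48%) at p under 0.05 (median log2 fold change 0.79). Without fish 9 there were 4 of 20 higher, beside 332 of 17194 genes over all, with a median of 0.21. Without fish 1, 9 and 13 there were 2 of 20 higher and 1 lower, beside 844 and 509 of 17175 genes, with a median of 0.08. The mean log2 cpm of the list, minus that of the controls, was 0.10, 1.78, 0.48, -0.13 and 0.22 in challenged fish. Control fish ran from -0.33 to 0.52, so by this mean fish 9 alone lay above them. Some of the 22 passed the filter only with fish 9 included, so the counts describe the tested genes only. The peptide transporter tap1, which loads MHC class I molecules, had 37.9, 68.0, 41.8, 45.0 and 47.2 cpm in the challenged fish and 33.4, 38.9, 30.2, 33.6 and 30.4 cpm in the control fish (log2 fold change 0.53, standard error 0.16, p = 0.00253, exact permutation p = 0.0159). Only challenged fish 1 lay under a control fish (10), and without fish 9 the change was 0.37. The diencephalon gave 47.1, 69.8, 45.5, 43.1 and 51.7 cpm against 36.8, 45.3, 34.4, 36.4 and 38.0 cpm, where no challenged fish but 19 lay under the highest control fish, 10. The immunoproteasome subunit psmb9a (3 of 5), 1 of 5 annotated copies, had 1.14, 12.5, 1.37, 0.437 and 2.49 cpm in the challenged fish and 1.28, 1.57, 0.680, 0.905 and 0.384 cpm in the control fish (1.89, p = 0.0136, exact permutation p = 0.27), and lgals9l1, a galectin, had 28.6, 179, 23.3, 27.7 and 55.6 cpm in the challenged fish and 30.4, 37.9, 23.4, 31.2 and 26.2 cpm in the control fish (1.08, p = 0.0192, exact permutation p = 0.381). Both were highest in fish 9 and next in fish 29.

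A different fish led in a pair of antiviral genes. The transcription factor irf3, which virus sensors activate, had 7.76, 5.67, 28.8, 5.54 and 7.75 cpm in the challenged fish and 3.49, 6.42, 5.76, 5.33 and 7.29 cpm in the control fish (log2 fold change 0.98, p = 0.00837, exact permutation p = 0.159), and rnf213b, an interferon-induced ubiquitin ligase, had 18.2, 31.5, 56.0, 18.7 and 15.7 cpm in the challenged fish and 15.4, 19.9, 17.3, 15.5 and 17.3 cpm in the control fish (0.72, p = 0.0145, exact permutation p = 0.151). Challenged fish 13 was highest in both, and without it the change of irf3 was 0.24. In diencephalon control fish 32 stood above fish 13 for both genes, with 6.12, 6.38, 21.8, 6.65 and 10.4 cpm against 3.94, 5.90, 8.41, 6.98 and 31.9 cpm for irf3. A gene without a name, ENSGACG00000018668 (groupVII, 518792 to 520048), chosen after its values were seen, had 18.9 cpm in fish 13, 0.684 cpm in fish 1 and at most 0.0873 cpm in the other 8, and 10.4 cpm in the diencephalon of fish 13 alone. Single telencephalon libraries of other times were as high, with 15.8 cpm in a control fish at 30 minutes and 17.8 cpm in a challenged fish at 60 minutes. Another gene so chosen, aldoca (aldolase C), stood at 8.67 cpm in fish 1 and 0.240 to 0.625 cpm in the other telencephalon libraries of 120 minutes, and 0.170 to 1.42 cpm at the other times, with 6.67 to 159.7 cpm in diencephalon.

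Photoreceptor and retina genes had lower means in challenged fish, and control fish 20 set most of the size of the difference. Of 79 genes on the list 61 could be tested, and of these 19 were lower (31.1%, beside 1.48% of all genes) and none higher (beside 2.5%) at p under 0.05, with a median log2 fold change of -1.38. Without control fish 20 none of 55 genes was lower and the median was -0.22. Some of the 61 passed the filter only with fish 20 included, so the counts describe those 61 genes only and support nothing further. Fish 20 was highest for 48 of the 61 genes, and for 35 of them it had over 2 times the level of the next fish. The summed level was 348 cpm in fish 20 and 64.6 to 128 cpm in the other 9. The mean log2 cpm of the 61 genes was -1.13, -0.70, -1.04, -0.87 and -1.02 in challenged fish. It was 0.03, -0.41, 1.99, -1.39 and -0.65 in control fish, so that control fish 25 alone lay under a challenged fish. In diencephalon the fish that stood apart was challenged fish 19, with a summed level of 2599 cpm against 101 to 169 cpm in the other 9.

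For rom1b (ENSGACG00000016903, groupIV, 5039722 to 5043757), a tetraspanin of the photoreceptor disc rim, the values were 0, 0, 0.0893, 0.131 and 0.0873 cpm in the challenged fish and 0.937, 0.218, 8.24, 0.0335 and 0.548 cpm in the control fish (log2 fold change -4.90, standard error 1.72, p = 0.00825, exact permutation p = 0.0476). No challenged library held more than 4 reads of it, and control fish 25 was as low as the challenged fish. Without fish 20 the change was -2.67. In diencephalon the values were 0.0403, 0.153, 0.155, 71.6 and 0.0287 cpm against 0.533, 0.571, 0.557, 0.513 and 0.135 cpm. The paralog rom1a had 0.0456, 0.0962, 0.179, 1.62 and 0.175 cpm in the challenged fish and 0.596, 1.09, 7.04, 0.101 and 1.097 cpm in the control fish (-2.29, p = 0.0754, exact permutation p = 0.135), the long-wave cone opsin opn1lw2 had 0.0912, 0.192, 0.208, 0.437 and 0.153 cpm in the challenged fish and 1.36, 0.655, 15.3, 0.0335 and 0.494 cpm in the control fish (-4.06, p = 0.0134, exact permutation p = 0.135) and the arrestin sagb had 0.182, 0.128, 0.268, 0.0873 and 0.175 cpm in the challenged fish and 1.15, 0.218, 6.72, 0.101 and 0.603 cpm in the control fish (-3.34, p = 0.0143, exact permutation p = 0.0952). Fish 20 was over 4 times above the next fish in all 4.

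The photoreceptor factor crx had 0.684, 0.898, 0.417, 0.655 and 0.502 cpm in the challenged fish and 0.383, 0.611, 1.52, 0.469 and 0.494 cpm in the control fish, a log2 fold change of -0.15 (standard error 0.65, p = 0.821, exact permutation p = 0.992). It was highest in fish 20 by less than 2 times, and without fish 20 the sign turned to 0.36. High photoreceptor levels also occurred at 60 minutes, where 1 control telencephalon had 63.0 cpm of rom1b and 123 cpm of opn1lw2, more than in fish 20. Defining photoreceptor genes were thus near 0 in most libraries of both groups, and the part of retinal tissue in the difference was not tested.

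Of 26 immediate early genes tested, 1 was higher (3.85%, near the 2.5% of all genes) and none lower at p under 0.05, and the median log2 fold change was 0.14. Without challenged fish 13 there were 5 higher, beside 745 of 17244 genes over all, and without fish 9 there were 4, beside 332 of 17194. The gene that was higher over all fish was gadd45g, a stress-inducible regulator of growth arrest, with 38.4, 36.4, 28.1, 45.8 and 47.7 cpm in the challenged fish and 22.8, 25.9, 24.6, 32.4 and 27.4 cpm in the control fish (log2 fold change 0.56, standard error 0.21, p = 0.0115, exact permutation p = 0.0159). Challenged fish 13 was the only one under the highest control fish, 25. The medians of gadd45g at 30 minutes were 22.7 cpm in challenged and 34.9 cpm in control fish, with the order reversed. At 60 minutes they were 31.2 and 32.4 cpm. For npas4a, which neurons switch on after calcium influx, the values were 34.9, 21.3, 21.8, 22.5 and 47.9 cpm in the challenged fish and 20.1, 23.4, 23.1, 32.0 and 16.3 cpm in the control fish (0.37, p = 0.0954, exact permutation p = 0.302). For fos they were 23.1, 15.6, 15.3, 17.1 and 28.0 cpm in the challenged fish and 14.9, 18.1, 17.5, 20.3 and 15.1 cpm in the control fish (0.21, p = 0.227), and for egr1 93.6, 93.4, 96.7, 89.1 and 115 cpm in the challenged fish and 104, 106, 111, 123 and 107 cpm in the control fish (-0.18, p = 0.146, exact permutation p = 0.0476).

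Challenged fish 29 and 1 were the highest of 10 for npas4a and fos, and without fish 29 the changes were 0.12 and 0.04. The levels of fos were higher at 30 minutes, with medians of 47.8 cpm in challenged and 30.4 cpm in control telencephalon, and its treatment effect at 120 minutes lay 0.56 under that at 30 minutes (a log2 difference of -0.56, unadjusted p = 0.0225). For npas4a the medians at 30 minutes were 49.2 and 34.7 cpm, and the difference of effects was -0.20 (unadjusted p = 0.511).

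The remaining marker lists gave no direction common to all of them. By sign, 16 of 23 muscle, 18 of 23 epithelial and 8 of 12 oligodendrocyte genes were lower in challenged fish. In contrast, 6 of 7 inner-ear and 6 of 9 circadian genes were higher. Over all 17247 genes, 7932 were lower and 9315 higher. The shares over all genes were 2.5% higher and 1.48% lower at p under 0.05. Skeletal muscle genes (23 of 25 tested) had a median log2 fold change of -0.28 with 1 higher (4.35%) and none lower. Epithelial genes (23 of 24) had -0.40 with none in either direction, and oligodendrocyte genes (12 of 14) -0.15 with 1 lower (8.33%). Inner-ear genes (7 of 11) had 0.32 with 1 higher (14.3%) and circadian genes (9 of 9) 0.04 with 1 higher (11.1%). Of 10 pituitary hormone genes only 1 passed the filter in telencephalon, at 0.590 to 2.26 cpm. The summed level of the muscle genes ran from 620 to 797 cpm in challenged and from 667 to 767 cpm in control fish, and that of the epithelial genes from 175 to 308 and from 218 to 378 cpm, so both overlapped.

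**Figure D4:**
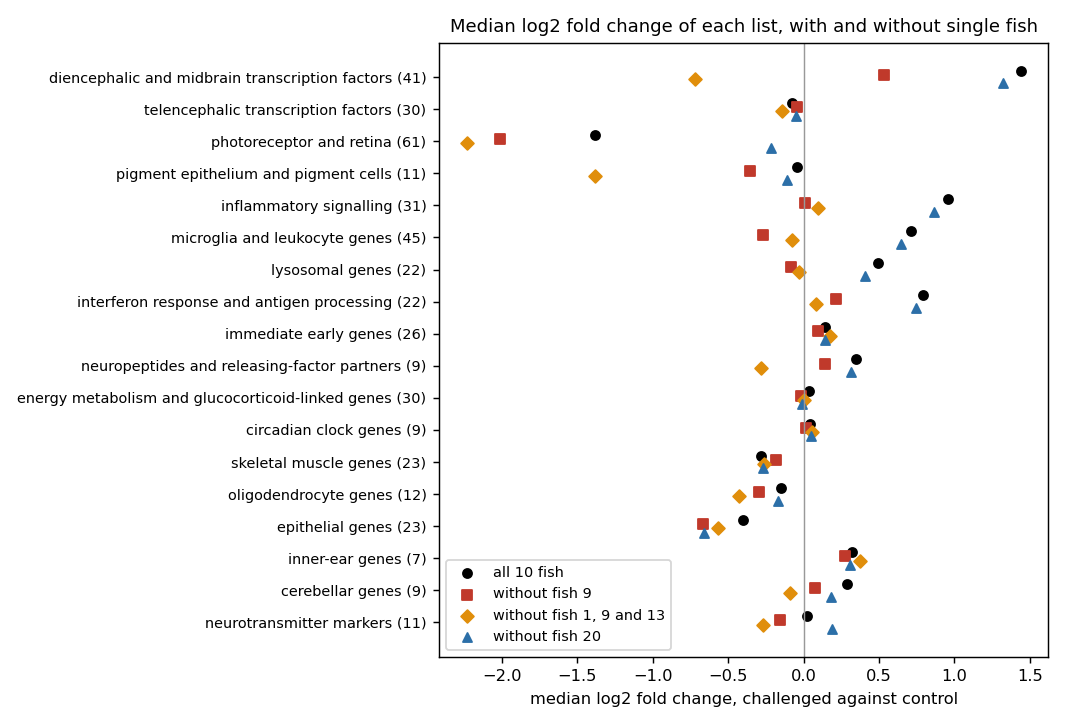
Median log2 fold change (challenged against control, horizontal axis) of each list over all 10 fish and with fish 9, fish 20 or fish 1, 9 and 13 left out. The number in brackets is that of members tested over all 10 fish, and some lists had fewer with fish left out. The medians of the immune lists move to near 0 without fish 9 (-0.27 to 0.21), that of the photoreceptor list to -0.22 without fish 20, and that of the diencephalic factors to -0.72 without fish 1, 9 and 13.

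The difference of the treatment effect between telencephalon and diencephalon of the same 10 fish was tested for 17536 genes, and no gene passed (smallest adjusted p = 0.819, 255 genes or 1.45% at unadjusted p under 0.05, edgeR). With the fish as a replicate block 2 genes passed (0.0114%), the pituitary hormone genes cga and gh1. Both calls rest on the diencephalon library of control fish 32, with 294 cpm of cga and 139 cpm of gh1, where the other 9 diencephalon libraries had at most 0.690 and 0.463 cpm and the telencephalon at most 3.72 and 2.17 cpm. Neither gene passed the filter on low counts in telencephalon.

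By the value of the region difference, 2 kinds of genes stood out among those named, each given here as values that did not pass adjustment, from the fit without the block. The diencephalic factors were higher in the telencephalon of fish 1 and 9 and not higher in the diencephalon of challenged fish. Of 41 such factors, none was higher and 4 were lower in diencephalon at unadjusted p under 0.05 (edgeR quasi-likelihood test). Over all 17168 genes, 561 were higher and 406 lower there. For pax7b the log2 fold change was 4.84 in telencephalon and -0.20 in diencephalon (edgeR quasi-likelihood test of the difference, unadjusted p = 8.8e-05). For irx5a it was 3.129 and -0.06 (edgeR quasi-likelihood test of the difference, unadjusted p = 0.00479). The photoreceptor genes were high in different fish in the 2 regions, with -4.90 and 4.95 for rom1b (0.000639) and -3.34 and 4.36 for sagb (0.00156). In contrast, the effects in both regions lay close together for MAMDC4 (3.12 and 2.76), CIDEC (1.02 and 1.03), sfi1 (-0.66 and -0.59), MTFP1 (-1.03 and -0.92) and MLXIPL (-1.61 and -1.30). With the fish as the block, the unadjusted p of the difference (edgeR) was 0.00566 for pax7b, 0.0529 for irx5a, 0.000527 for rom1b and 0.0403 for sagb. Both regions come from the same fish, so these are not independent measurements of the treatment.

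**Figure D5:**
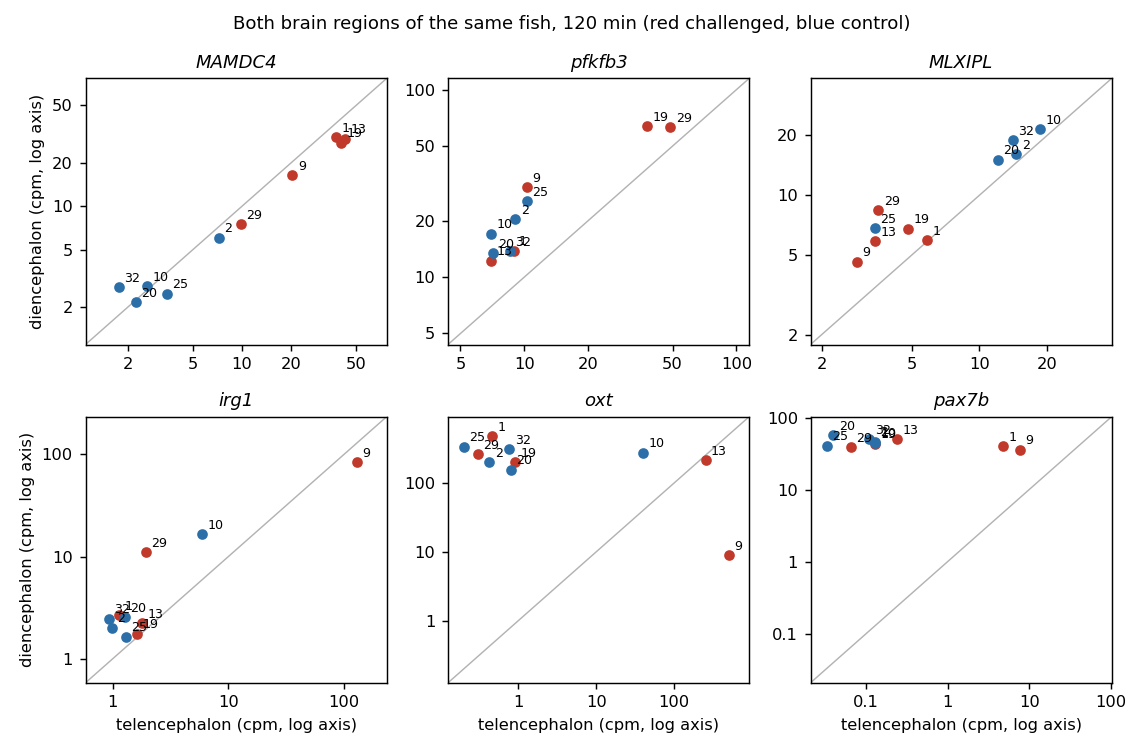
Level of 6 genes in telencephalon (horizontal, cpm on a log axis) against diencephalon (vertical, cpm on a log axis) of the same fish at 120 minutes, 1 point per fish with its number, challenged red and control blue; the grey line marks equal levels. MAMDC4, pfkfb3, MLXIPL and irg1 follow the fish in both regions, and oxt of fish 9 is high in telencephalon (509 cpm) and low in diencephalon (9.03 cpm). The level of pax7b differs far more between fish in telencephalon than in diencephalon.

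The treatment effect at 120 minutes did not pass a test against that at 60 minutes (0 of 17247 genes, 1849 or 10.7% at unadjusted p under 0.05) or 30 minutes (0 genes, 698 or 4.05%) in telencephalon, with 14 genes against 60 minutes by the likelihood ratio test. Without control fish 20, sfi1 passed against 30 minutes. Some of the named genes varied as widely among fish at other times. The level of irg1 reached 435 cpm in a control fish at 60 minutes, where the group median was 1.66 cpm, and ccl-c5a reached 90.4 cpm in controls of that time. The level of pax7b reached 4.14 cpm in a challenged fish at 30 minutes, with a median of 0.182 cpm. Groups of 5 in which 1 fish stood far from the rest were therefore not confined to the challenged fish of 120 minutes.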

How the data were processed

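Poly-A RNA was sequenced from dissected telencephalon and diencephalon of 30 fish. The authors trimmed single-end reads, aligned them with TopHat2 (2.0.8) to the repeat-masked stickleback genome, and deposited raw counts of 17536 genes made with HTSeq (0.6.1), without reads that fell in several genes. CASAVA (1.8.2) is also named in the submitters' processing notes. The deposited cpm were not used, and no column was left unused. Columns were matched to fish by name.

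Counts were fitted in R (4.3.3) with edgeR (4.0.16): time and treatment within time over the 30 telencephalon libraries, TMM scaling, a filter that kept genes reaching 1 cpm in 2 or more libraries, quasi-likelihood tests and Benjamini-Hochberg adjustment over 6 comparisons at a threshold of 0.1. Standard errors are the absolute log2 fold change divided by the root of F. Single values were compared by two-sided exact permutation of log2 cpm (prior count 2). Region-type levels used 100 genes chosen in control fish of the other times (at least 2 cpm). Alternatives used DESeq2 (1.42.0), limma (3.58.1), other filters, scalings and covariates, and left out fish. Those without fish 1 and 9, and without fish 1, 9 and 20, were chosen after seeing the data. The steps were tested on simulated data. Tables were made in Python (3.11.15; pandas 2.3.3, numpy 2.4.6, scipy 1.17.1), figures in matplotlib 3.10.9.

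Named genes were the 15 higher and 10 lower genes of smallest p among those the study names, up to 6 members of each of 19 lists by p, and 23 genes set by name, of which those that illustrate a group are given (1 gene of the rule is not reported here). The members, the lists and this rule were chosen with earlier results of these data known, and 1681 of the genes tested carried a name in the study's annotation, which it drew partly from these libraries. Coordinates are those of that annotation and its Ensembl build. Both regions of a fish share its number in the labels, and their deviations from the group means correlated at r = 0.36 to 0.67 across genes, so a fit with the fish as replicate block is given beside the region comparison, which had no block. The paper describes a paired control male that received the empty flask at the same time as the challenged male its intruder. The labels do not give these pairs, so challenged and control males were compared as unpaired. Levels that rest on a few reads, such as pax7b in control fish, carry a large counting error. No RNA or promoter sequence is given, since no genome was used here.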

Additional observations from a re-analysis of the deposited data

Results flagged for a closer look

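In each of 67 named genes (and 2 region-type levels) the 5 challenged and the 5 control telencephalon values were searched for a fish that stood far from the others, by the gap to its neighbour as a share of the group's range (over 0.71 for 5 fish). Chance alone marks about 1 in 20 such groups. Here 19 of 138 were marked, but the genes were chosen by p, by list or for the value of 1 fish, and many were high together in the same fish, so this share is no test.

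Challenged fish 9 was far above the other challenged fish in irg1 (0.891), il1b (0.891), scospondin (0.845), irf8 (0.793), spi1b (0.79) and ccl-c5a (0.771). These are immune genes except for scospondin, a product of the subcommissural organ. Control fish 10 was far above the other controls in irg1 (0.822), avp (0.807), spi1b (0.798), oxt (0.765) and ctsl.1 (0.737), so that immune genes and nonapeptides were both high in that fish.

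Control fish 2 stood above the other controls in CIDEC (0.892) and thyn1 (0.811). Control fish 20 stood below them in eef1db (1 of 2) (0.856), control fish 32 in pnoca (0.776) and control fish 25 in MLXIPL (0.742). Challenged fish 13 was far above the others in irf3 (0.797), fish 1 in aldoca (0.791) and fish 29 in anp32e (2 of 2) (0.723).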

How the results depend on the processing

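The count of 0 called genes held with robust estimation, RLE, limma voom with sample weights, other filters, the 10 libraries alone, covariates, adjustment within the comparison and each fish left out. It was 1 by the likelihood ratio test, 7 by DESeq2 and 1 without fish 1, 9 and 13. Higher and lower genes at p under 0.05 ran from 332 to 745 and from 199 to 445 as single fish were left out (both highest without fish 13), and were 844 and 509 without fish 1, 9 and 13. The cause was not tested. Modelled with a replicate block for each fish, the region difference had 2 calls in place of 0. The likelihood ratio test gave 14 calls for 120 against 60 minutes. Calls for 120 against 30 minutes ran from 0 to 1 (without fish 20), and the difference in diencephalon-type level from 0.41 (without fish 9) to 1.03 (without fish 29).

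Of 1492 log2 fold changes of named genes under alternatives, 1447 kept their sign and 45 in 18 genes did not. With single fish left out the values ran from -0.33 to 4.57 for irg1, from -0.31 to 2.58 for mpeg1, from -0.088 to 4.105 for ctsl.1, from -0.39 to 1.36 for irf8 and from -0.40 to 1.05 for spi1b (each lowest without fish 9 and highest without fish 10), and from -0.32 (without fish 9) to 0.36 (without fish 20) for crx. Without fish 1 and 9 the sign turned for irg1 (-0.21), mpeg1 (-0.31), ctsl.1 (-0.036), irx2a (-0.44), irx5a (-0.051), pou4f2 (-0.42), irf8 (-0.33) and spi1b (-0.40). Without fish 1, 9 and 20 it turned for tal1 (-0.075), irg1 (-0.35), mpeg1 (-0.49), ctsl.1 (-0.21), irx2a (-0.67), irx3a (-0.081), irx5a (-0.25), shox (-0.024), pou4f2 (-0.52), crx (0.091), irf8 (-0.44), spi1b (-0.51), pparg (-0.047) and scospondin (-0.025). Without fish 1, 9 and 13 it turned for tal2 (-0.26), tal1 (-0.034), irg1 (-0.20), oxt (-3.96), avp (-2.80), irx2a (-1.09), irx3a (-0.53), irx5a (-1.03), tfap2b (-0.56), shox (-1.17), pou4f2 (-1.71), irf8 (-0.17) and spi1b (-0.26). With the library index group in the model it turned for crx (0.46), irf8 (-0.11) and spi1b (-0.043) and with the diencephalon-type level in the model for pou4f2 (-0.84). Of 436 list medians, 8 moved by over 1 SD between fish.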
